A study of Rattus norvegicus with 34 samples.

Results

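*Chi3l1* and *Chi3l3* were the 2 chitinase-like genes among the 44 specific genes on a TaqMan microfluidic card that was run on retinal RNA of single rats. They were selected by name. Retinae of uninjected Sprague Dawley (SD) rats (6 rats), uninjected PKD rats (6 rats), PKD rats injected with clodronate liposomes (PKD + Clodronate, 5 rats), and PKD rats injected with control liposomes (PKD + Controlliposomes, 6 rats) were compared. All rats were analyzed at 9 weeks of age, and the injected groups had received 3 µl into the vitreous at 4 and at 8 weeks. PKD rats are of the labelled strain PKD2(HA-1/703-CMV-247) and overexpress a truncated polycystin-2 from a cytomegalovirus promoter, which is not restricted to the retina, and they serve as a model of photoreceptor and vessel loss. The PKD rats were homozygous males, per the methods of the study. Clodronate in liposomes is taken up by phagocytes and used to deplete them. In stained retinae of PKD rats, however, the study counted as many microglia with clodronate liposomes as without injection. Microglia with the activation marker CD74 were more numerous with clodronate liposomes, and control liposomes raised both counts. All injected rats analyzed here carried the transgene and had received liposomes, so that injection and liposome effects cannot be told apart. PBS-injected PKD rats and clodronate-injected SD rats were not analysed here. RNA came from whole retina, in which fewer cells of a type and less RNA per cell cannot be told apart.

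Chitinase-like proteins share the fold of the chitin-cleaving enzymes but have lost the ability to cut chitin, and they act as secreted lectins in inflammation and tissue remodeling. *Chi3l1* (GP-39 and *Chil1* among its RefSeq synonyms) encodes a glycoprotein that reactive astrocytes and macrophages release in inflamed nervous tissue. *Chi3l3* (synonym *Chil3*, the gene of Ym1) is made by myeloid cells and is a marker of alternative activation, the macrophage state driven by interleukin-4 and interleukin-13, together with *Mrc1* and *Retnla*. In the RefSeq table of the rat assembly GRCr8, *Chi3l3* lies between *Chia* and *Chial1*, and *Chi3l1* lies between *Chit1* and *Mybph*. The assays were Rn01490608_m1 for *Chi3l1* and Rn01523660_g1 for *Chi3l3*.

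The 2 genes behaved differently on the cards. *Chi3l1* gave a quantification cycle (Cq, the PCR cycle at which the signal crosses the threshold, lower for more template) in 23 of 23 rats. Its median Cq was 19.1 cycles after 14 cycles of pre-amplification, compared to a median of 24.4 cycles over the specific genes, and 0 of the specific genes had a lower median Cq. As assays can differ in efficiency, this is a rank of cycles, not of transcript numbers. *Chi3l3* gave a Cq in 4 of 23 rats, all of them uninjected PKD rats. For expression values, the Cq of the gene was subtracted from the mean Cq of 4 reference genes (18S, *B2m*, *Mrpl19*, *Ywhaz*), which gives a log2 scale on which 1 unit is 1 PCR cycle.

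One rat of the SD group stood apart from the others of its group. In SD rat 3 (rats are numbered by their order within a group, which carries no pairing), *Chi3l1* expression was 1.30 relative to the SD mean, whereas the other 5 SD rats lay between −0.63 and 0.11. The same rat was the highest of the SD group for 10 of the 13 other genes that were higher in PKD than in SD rats, and for 22 of all 41 tested genes. Its values were 1.80 for *Gfap*, the intermediate filament of astrocytes and reactive Müller cells, 1.83 for *Socs3*, a feedback inhibitor of interleukin-6 signaling, and 4.04 for the serpin *Serpina3n*, each relative to the SD mean. The *Chi3l1* differences from SD rats and the counts of the gene lists are therefore given with and without this rat, and values on other scales with all rats.

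*Chi3l1* was more highly expressed in all PKD groups than in SD rats, by 2.68- to 3.27-fold with the reference genes. The Cq in SD rats 1 to 6 was 20.14, 20.03, 19.03, 20.72, 20.82, and 21.43 cycles, and in the 6 uninjected PKD rats 19.10, 18.85, 19.24, 19.40, 18.08, and 18.22 cycles. Related to the reference genes and to the SD mean, *Chi3l1* expression in the SD rats was −0.30, 0.11, 1.30, −0.28, −0.20, and −0.63. In the PKD rats it was 1.34, 1.61, 1.69, 1.21, 2.25, and 2.14. All 6 PKD rats were above the SD mean, and 5 of 6 were above every SD rat. The remaining PKD rat was below SD rat 3, so that the groups overlapped through this SD rat. The mean was 1.71 ± 0.419 (standard deviation, n = 6 rats) in PKD and 0 ± 0.681 (standard deviation, n = 6 rats) in SD rats.

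This corresponds to 3.27-fold higher *Chi3l1* expression in PKD than in SD rats (95% confidence interval 2.22 to 4.81), with a log2 fold change of 1.71 ± 0.27 (SE; adjusted p = 1.14e-05, limma over 41 genes). A two-sided exact permutation test gave p = 0.00433, or 0.0130 after adjustment over 6 comparisons of *Chi3l1*, where 0.00216 was the smallest p that 6 against 6 rats allow. Without SD rat 3, the difference was 1.97, all 6 PKD rats were above the other 5 SD rats, and the exact permutation test gave the smallest p possible, 0.00216 (0.00325 adjusted over 3 comparisons). SD rat 3 was the only SD rat that overlapped the PKD rats, and it was left out after its value had been seen. The smallest p follows from that choice and is no further support. Of the 41 tested genes, 36.6% passed the threshold in this comparison, 14 higher and 1 lower in PKD rats, with a median log2 fold change of 0.44. *Chi3l1* ranked seventh by fold change, below *Lcn2* (2.09), which encodes the iron-trapping protein lipocalin, and above the complement gene *C3* (1.13).

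**Figure D1:**
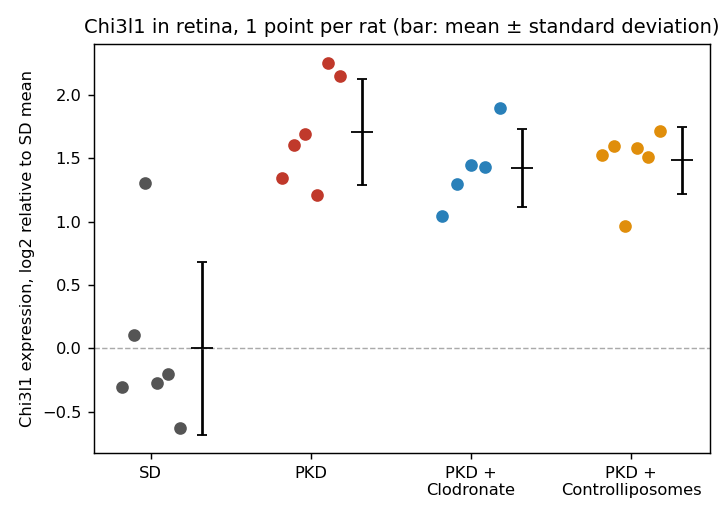
*Chi3l1* expression in each rat (y axis, log2 units relative to the SD mean, 1 point per rat) in the 4 groups, with the mean and standard deviation as a cross bar and error bar beside the points. SD rat 3 at 1.30 lies among the PKD rats, while the other SD rats lie between −0.63 and 0.11.

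In the 5 PKD + Clodronate rats, the *Chi3l1* Cq was 18.71, 18.95, 19.38, 19.76, and 18.65 cycles, and expression relative to the SD mean was 1.05, 1.30, 1.45, 1.43, and 1.89. All 5 rats were above the SD mean, and 3 of 5 were above every SD rat, including SD rat 3. The mean was 1.42 ± 0.309 (standard deviation, n = 5 rats), which is 2.68-fold higher expression than in SD rats (95% confidence interval 1.79 to 4.03; log2 fold change 1.42 ± 0.28 SE, adjusted p = 0.000194, limma). The two-sided exact permutation test gave p = 0.00866 (0.0173 adjusted over 6 comparisons). Without SD rat 3 the groups did not overlap, the difference was 1.68, and the exact permutation p was 0.00794, the smallest possible for 5 against 5 rats. As above, this p follows from leaving out the only overlapping SD rat and is no further support. The share of tested genes past the threshold was 51.2%, and *Chi3l1* stood between *Tnfrsf12a*, a receptor of the tumor necrosis factor family (1.51), and the complement protease gene *C1s* (1.37) by fold change.

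In the 6 PKD + Controlliposomes rats, the *Chi3l1* Cq was 19.07, 18.72, 19.43, 18.75, 19.05, and 19.05 cycles, and expression was 1.53, 1.60, 0.97, 1.58, 1.51, and 1.71 relative to the SD mean. The rat at 0.97 was the only one of this group below SD rat 3, and the other 5 lay close together. The mean of 1.48 ± 0.263 (standard deviation, n = 6 rats) was 2.79-fold higher than in SD rats (95% confidence interval 1.89 to 4.11; log2 fold change 1.48 ± 0.27 SE, adjusted p = 4.72e-05, limma). The two-sided exact permutation p was 0.00433 (0.0130 adjusted over 6 comparisons), and 0.00216 without SD rat 3, again the smallest possible, with a difference of 1.74. The p without SD rat 3 again follows from leaving out the only overlapping SD rat. In this comparison 63.4% of the tested genes passed the threshold, and *Chi3l1* lay between *Itgam*, the integrin chain CD11b of microglia and other myeloid cells, and the cytokine gene *Il6* (1.47). The 3 comparisons share the SD rats and are therefore not independent of each other.

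The size of these differences depended on the scale. When expression was related to the mean of the specific genes instead of the reference genes, the median log2 fold change of all tested genes moved from 0.44 to −0.38 in PKD against SD rats, from 0.63 to −0.25 in PKD + Clodronate, and from 0.75 to −0.30 in PKD + Controlliposomes. This base contains *Chi3l1* itself and genes with large differences, such as *Edn2* (4.60 in PKD against SD with the reference genes) and *Socs3* (4.22). It therefore rose in PKD rats relative to the reference genes, which by construction lowers every gene on this scale. A gene called lower on it need not have less transcript. On this scale *Chi3l1* was 0.88 log2 units higher in PKD than in SD rats (adjusted p = 0.00574, limma). It was 0.54 higher in PKD + Clodronate (adjusted p = 0.0749, limma) and 0.43 higher in PKD + Controlliposomes (adjusted p = 0.131, limma), neither of which passed the threshold. With this scaling, 7 tested genes were higher and 16 lower in PKD rats, 9 higher and 13 lower in PKD + Clodronate rats, and 8 higher and 17 lower in PKD + Controlliposomes rats. With the reference genes the corresponding counts were 14 and 1, 19 and 2, and 23 and 3. With the Cq values as deposited, related to no gene, *Chi3l1* was 1.54, 1.27, and 1.35 higher in the same order and passed the threshold in each comparison (adjusted p = 0.000479, 0.00358, and 0.00140, limma). The mean Cq of the reference genes was 16.3 ± 0.342 in SD, 16.5 ± 0.221 in PKD, 16.5 ± 0.548 in PKD + Clodronate, and 16.4 ± 0.175 cycles in PKD + Controlliposomes rats (standard deviations). Over 30 exact permutation tests of the reference genes and their mean between groups, the smallest p was 0.0195 and the smallest adjusted p was 0.314. With so few rats, these tests cannot show that the reference genes were stable. The *B2m* Cq differed from SD rats by −0.35, −0.71, and −0.65 cycles in PKD, PKD + Clodronate, and PKD + Controlliposomes rats. For *Ywhaz* the differences were 0.46, 0.43, and 0.58 cycles, and 18S and *Mrpl19* were also later than in SD rats in each PKD group. The mean of the reference genes does not show these opposite shifts.

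**Figure D2:**
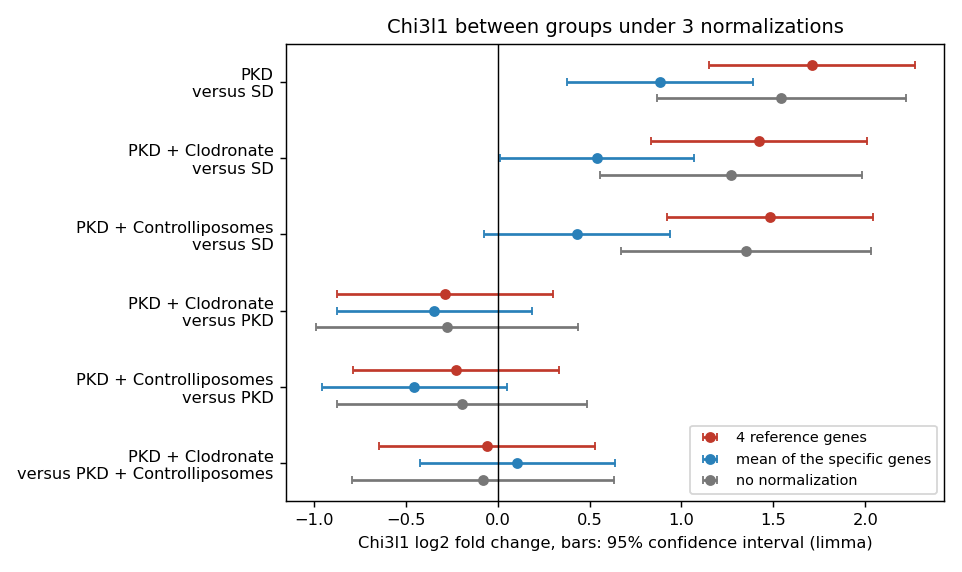
*Chi3l1* log2 fold change (x axis) in the 6 comparisons, with 95% confidence intervals from limma, under 3 normalizations marked by color. Against SD rats, the estimates from the reference genes lie between 1.42 and 1.71 and those from the mean of the specific genes between 0.43 and 0.88, while the intervals of the comparisons among PKD groups all include 0.

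Among the 3 PKD groups no difference in *Chi3l1* was detected. The order of the means was PKD (1.71), PKD + Controlliposomes (1.48), and PKD + Clodronate (1.42), and neighbors in this order differed by less than their standard deviations, whereas SD rats were below each of them by more. PKD + Clodronate differed from uninjected PKD rats by −0.28 ± 0.28 log2 units (SE; 95% confidence interval −0.87 to 0.30; adjusted p = 0.630, limma), a ratio of 0.821 with an interval from 0.547 to 1.23. The two-sided exact permutation test gave p = 0.227, and 1 of 5 clodronate-treated rats was above the PKD mean. PKD + Controlliposomes differed from PKD rats by −0.23 ± 0.27 (SE; 95% confidence interval −0.79 to 0.33; adjusted p = 0.649, limma; exact permutation p = 0.290). Between both liposome groups the difference was −0.058 ± 0.28 (SE; 95% confidence interval −0.64 to 0.53; adjusted p = 0.886, limma; exact permutation p = 0.745), and its sign turned with the mean of the specific genes (0.11). Few other genes passed the threshold in these comparisons, namely 0% of the tested genes in PKD + Clodronate against PKD (0 by limma, and 5 at an unadjusted p below 0.05), 2.44% in PKD + Controlliposomes against PKD, and 4.88% in PKD + Clodronate against PKD + Controlliposomes.

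Several genes of reactive glia and the interleukin-6 response were higher in PKD than in SD rats together with *Chi3l1*. Of 7 such genes, chosen with earlier results of these data known, 5 were higher in PKD rats, where 36.6% of all tested genes passed, with a median log2 fold change of 2.09 against 0.44 for all tested genes. The largest was *Socs3* with 4.22, followed by *Serpina3n* with 4.15, *Gfap* with 2.62, *Lcn2* with 2.09, and *C3* with 1.13. *Il6* at 0.91 (adjusted p = 0.0623, limma) and *Timp1*, an inhibitor of matrix metalloproteinases, at 0.72 (adjusted p = 0.173, limma) did not pass. Without SD rat 3 all 7 genes passed in this comparison, with a median of 2.36. In that setting 16 of all 41 tested genes were higher and 1 lower, with a median of 0.46. With clodronate 6 of 7 genes were higher than in SD rats, including *Timp1* at 1.13, and with control liposomes all 7 were higher, including *Il6*. Of all 41 tested genes, 19 and 23 were higher in the same order. Both counts of the list were the same without SD rat 3, where 20 and 22 of all 41 tested genes were higher. The mean over the 7 genes was 2.26 in PKD rats (2.07 to 2.42), 2.46 in PKD + Clodronate rats (1.84 to 2.76), and 2.89 in PKD + Controlliposomes rats (2.45 to 3.28) relative to the SD mean, and −0.53 to 1.85 among SD rats, where SD rat 3 was highest. With the specific-gene mean as the base, *Gfap*, *Lcn2*, *Serpina3n*, and *Socs3* (4 of 7) were higher in PKD than in SD rats, and these and *C3* (5 of 7) were higher in each liposome group than in SD rats. On that scale 7, 9, and 8 of all 41 tested genes were higher in PKD, PKD + Clodronate, and PKD + Controlliposomes than in SD rats.

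**Figure D3:**
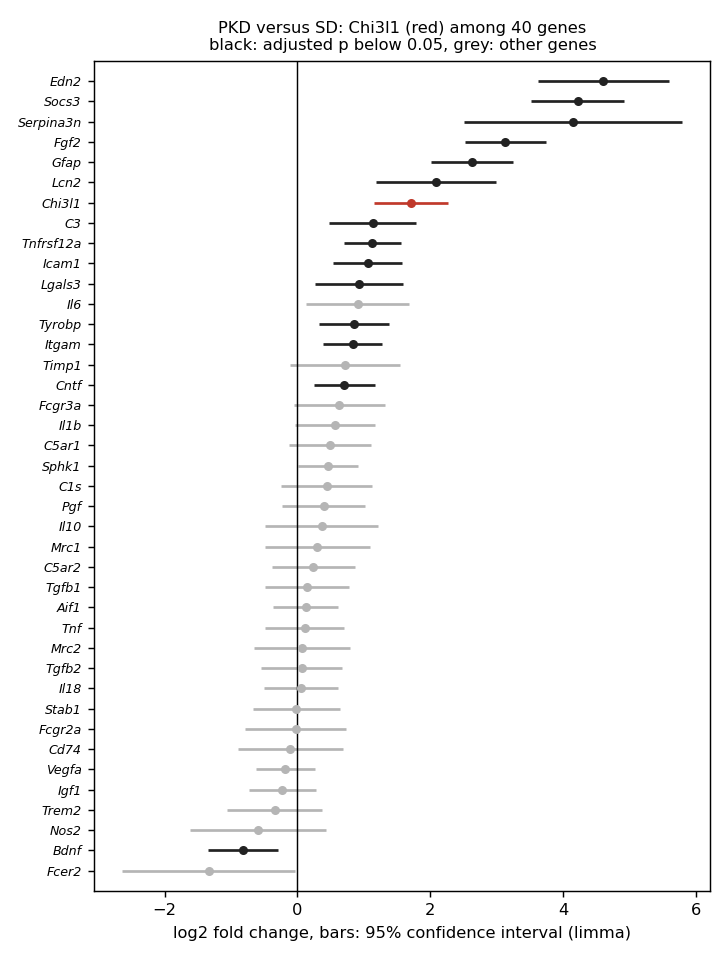
Log2 fold change of 40 of the 41 tested genes between PKD and SD rats (x axis) with 95% confidence intervals from limma, ordered by size, with *Chi3l1* in red, other genes past the threshold in black, and the remaining genes in gray. *Chi3l1* lies seventh at 1.71, between *Lcn2* and *C3*.

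Microglia and macrophages can also make chitinase-like proteins. Of 9 of their marker genes, 3 were higher in PKD than in SD rats with the reference genes, namely *Itgam* (0.83), *Tyrobp*, a signaling adaptor of myeloid receptors (0.85), and *Lgals3*, a galactose-binding lectin (0.93). The median over the list was 0.49. The same 3 passed without SD rat 3 (median 0.57), where 16 of all 41 tested genes were higher. The share of 3 of 9 was close to that of all tested genes, of which 14 of 41 were higher, and is no result about the markers as a group. The same 3 genes were higher in PKD + Clodronate rats (0.70, 0.94, and 1.71), and *Aif1*, which encodes Iba1, and the Fc receptor gene *Fcgr3a* were higher as well in PKD + Controlliposomes rats (0.77 and 1.30). These counts of 3 and 5 of 9 stood beside 19 and 23 of all 41 tested genes that were higher, and are no result about the markers as a group. Both marker counts were the same without SD rat 3. *Aif1* was −0.22 in PKD + Clodronate against SD rats (adjusted p = 0.402, limma). *Aif1* and *Itgam* were lower by limma in PKD + Clodronate than in PKD + Controlliposomes rats, with log2 fold changes of −0.99 and −0.81, in a comparison in which *Chi3l1* differed by −0.058. Both calls were lost, with 0 genes past the threshold by limma, without *B2m* among the reference genes, without normalization, and without PKD + Clodronate rat 1 or 3 or PKD + Controlliposomes rat 2 or 4. The call of *Itgam* was also lost without *Mrpl19*, PKD + Clodronate rat 5, or PKD + Controlliposomes rat 1 or 3. The log2 fold changes lay between −1.15 and −0.80 for *Aif1* and between −0.96 and −0.64 for *Itgam* over 24 alternatives. The mean over the 9 markers relative to the SD mean was 0.38 in PKD (−0.044 to 0.56), 0.47 in PKD + Clodronate (0.069 to 0.75), and 0.83 in PKD + Controlliposomes rats (0.56 to 1.27), compared to −0.95 to 0.68 among SD rats, and all 9 markers gave a Cq in every rat. The marker with the lowest median Cq was *Cd74*, the invariant chain of antigen presentation, at 21.4 cycles. Against the mean of the specific genes, fewer markers were higher and more were lower, with 0 markers higher and 4 lower in PKD than in SD rats (*Aif1*, *Cd74*, *Fcgr2a*, and *Trem2*), 1 higher (*Lgals3*) and 2 lower (*Aif1* and *Trem2*) in PKD + Clodronate rats, and 1 higher (*Itgam*) and 3 lower (*C5ar1*, *Cd74*, and *Fcgr2a*) in PKD + Controlliposomes rats. Of all 41 tested genes, 16, 13, and 17 were lower on that scale in the same order, so that the shift was shared by the tested genes and is no result about the markers. The part of these cells in the *Chi3l1* difference was not tested. The card held no marker of photoreceptors or other neurons, so that the retinal origin of the RNA could not be checked on it.

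The genes whose pattern was most like that of *Chi3l1* over the 23 rats were *Fgf2*, a growth factor (Pearson r = 0.90), *Edn2*, which encodes an endothelin (0.89), *Gfap* (0.88), *Socs3* (0.87), and *Serpina3n* (0.81), with a median r of 0.37 over the 39 other genes with a Cq in every rat. On the scale of the specific-gene mean, r was 0.66 for *Fgf2*, 0.57 for *Edn2*, 0.58 for *Gfap*, 0.53 for *Socs3*, and 0.46 for *Serpina3n*, with *Lcn2* second at 0.59 and a median of −0.21. These values include the distance between the SD and PKD groups, and the measurements of a rat share the card and the reference genes. After the group means were subtracted, *Timp1* (0.67), *Gfap* (0.59), *Fgf2* (0.56), *Edn2* (0.54), and *Lgals3* (0.54) were closest, with a median of 0.22. For *Gfap*, *Fgf2*, and *Edn2*, this likeness within groups rested on SD rat 3, since without that rat r was −0.12, −0.10, and −0.012. For *Timp1* and *Lgals3* r fell to 0.37 and 0.30, against a median of −0.093 over genes, and *Il18*, the interleukin-18 gene, was highest with 0.41. Related to the mean of the specific genes and with all rats, r within groups was 0.43 for *Timp1*, 0.33 for *Gfap*, 0.30 for *Fgf2*, 0.28 for *Lgals3*, and 0.18 for *Edn2*, and the median over genes was −0.018. The closest gene then was *Cntf*, a neurotrophic factor (0.51), followed by *Lcn2* (0.46) and *Il18* (0.43), and *Cntf* was also closest without normalization (0.74), so that the order depended on the scale.

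**Figure D4:**
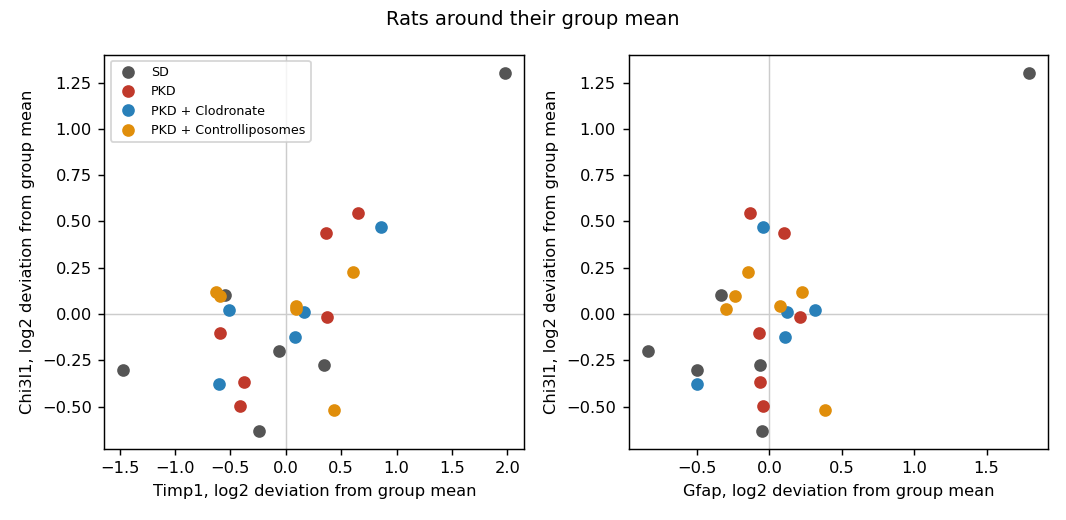
Deviation of *Chi3l1* from its group mean (y axis, log2 units) against the deviation of *Timp1* (left) and *Gfap* (right) in the same rats (x axis, log2 units), 1 point per rat, colored by group. SD rat 3 lies in the upper right corner of both panels, with *Chi3l1* at 1.30, *Timp1* at 1.98, and *Gfap* at 1.80.

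*Chi3l3*, by contrast, gave no Cq in most rats. A Cq was obtained in 4 of 6 uninjected PKD rats (66.7%, 95% Clopper-Pearson interval 22.3 to 95.7%), in 0 of 6 SD rats (upper bound 45.9%), in 0 of 5 PKD + Clodronate rats (upper bound 52.2%), and in 0 of 6 PKD + Controlliposomes rats (upper bound 45.9%). The intervals cover the small number of rats only. In PKD rats 1, 4, 5, and 6, the *Chi3l3* Cq was 34.97, 28.11, 27.51, and 28.42 cycles, and PKD rats 2 and 3 had none. PKD rats 4, 5, and 6 thus lay within 1 cycle of each other, and PKD rat 1 was later by more than 6 cycles. For comparison, *Tnf* gave a Cq in all 23 rats, with group means from 33.4 to 33.9 cycles. Expression relative to the reference genes was −18.57, −11.54, −11.22, and −12.10 in the 4 rats. The mean reference Cq was 16.40, 16.57, 16.29, and 16.32 cycles in these 4 PKD rats and 16.42 and 16.89 cycles in PKD rats 2 and 3, compared to 15.72 to 17.15 cycles over all rats. PKD rats 5 and 6 also had the highest *Chi3l1* expression of all rats (2.25 and 2.14), whereas PKD rats 1 and 4, with a *Chi3l3* Cq, had the lowest of their group (1.34 and 1.21).

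The difference in *Chi3l3* detection between PKD rats and each other group did not pass the threshold. Fisher's exact test (two-sided) gave p = 0.0606 against SD, PKD + Clodronate, and PKD + Controlliposomes rats alike, also after adjustment over the 3 comparisons, which share the PKD rats. This pattern was known when the gene was chosen, and the test is no independent support. The call depended on single PKD rats. Without PKD rat 1, 4, 5, or 6, each with a Cq, 60.0% of the remaining PKD rats had one, and the adjusted p from the exact test was 0.0909 against SD and PKD + Controlliposomes rats and 0.167 against PKD + Clodronate rats. Without PKD rat 2 or 3, both without a Cq, the share was 80.0%, and the adjusted p was 0.0227, 0.0227, and 0.0476 in the same order (exact test). When only Cq values up to 32 cycles were counted, 3 of 6 PKD rats (50.0%) remained, with an adjusted p of 0.182 in the exact test. With empty wells set to 40 cycles, PKD rats passed the threshold against SD rats (log2 difference 6.99, adjusted p = 0.00145, limma), and both liposome groups against PKD rats (−6.84 and −6.86, adjusted p = 0.0316 and 0.0192, limma), but the size is fixed by the value substituted. An empty well is not evidence of absence at this depth.

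Of the other genes of alternative activation, *Mrc1*, the mannose receptor, *Il10*, *Stab1*, a scavenger receptor gene, and *Tgfb1* had enough Cq values to be tested. With the reference genes, none of them passed the threshold in any of the 6 comparisons, also without SD rat 3 in those with SD rats. Of all tested genes, 36.6%, 51.2%, and 63.4% passed in the comparisons of PKD, PKD + Clodronate, and PKD + Controlliposomes with SD rats, but at most 4.88% in those among the PKD groups, where no call says little about these genes. In PKD against SD rats the log2 fold changes were 0.30 for *Mrc1*, 0.37 for *Il10*, −0.020 for *Stab1*, and 0.14 for *Tgfb1* (adjusted p from 0.562 to 0.951, limma), against a median of 0.44 for all tested genes. With the specific-gene mean as the base, *Stab1* and *Tgfb1* were lower in PKD than in SD rats, and *Mrc1* and *Il10* did not pass. On this scale *Il10* and *Stab1* were lower in PKD + Clodronate than in SD rats, and *Il10*, *Mrc1*, *Stab1*, and *Tgfb1* were lower in PKD + Controlliposomes than in SD rats. Of all 41 tested genes, 16, 13, and 17 were lower on it in PKD, PKD + Clodronate, and PKD + Controlliposomes rats. The medians of all tested genes were −0.38, −0.25, and −0.30 in the same order.

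*Il13* and *Retnla* were, like *Chi3l3*, mostly without a Cq. *Il13*, a cytokine that drives *Chi3l3* expression in macrophages, gave a Cq in 1 of 6 SD rats (33.27 cycles), 3 of 6 PKD rats (31.33, 29.12, and 28.99 cycles in rats 1, 3, and 4), 1 of 5 PKD + Clodronate rats (15.20 cycles), and 1 of 6 PKD + Controlliposomes rats (28.82 cycles). The value of 15.20 cycles lies far below the 28.82 to 33.27 cycles of the other rats and is doubtful as a detection, and whether it is a misreading was not tested. *Retnla*, a secreted protein of alternatively activated macrophages, gave a Cq in PKD rats 1 and 2 (28.76 and 31.86 cycles) and in 1 PKD + Controlliposomes rat (29.73 cycles). All 3 genes had a Cq in PKD rat 1 only, the rat with the late *Chi3l3* Cq and the only one of the PKD group whose 48 wells all gave a Cq. PKD rat 4 had a Cq for *Chi3l3* and *Il13*, and PKD rats 5 and 6 for *Chi3l3* alone.

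**Figure D5:**
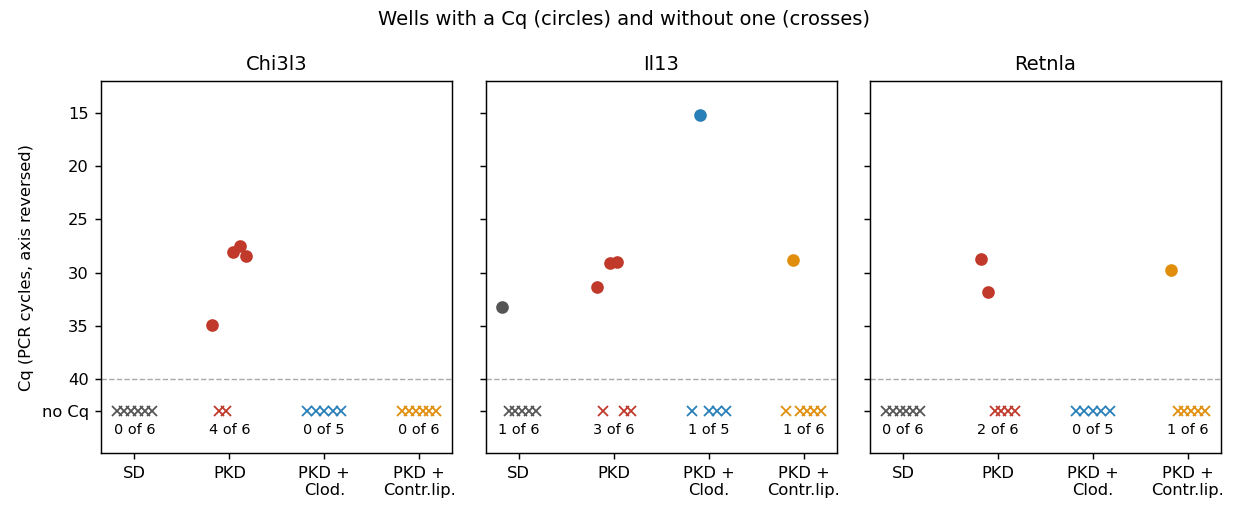
Cq (y axis, PCR cycles, reversed so that more template is higher, dashed line at the maximum of 40 cycles) of *Chi3l3*, *Il13*, and *Retnla* in the 4 groups, with circles for rats with a Cq and crosses below the line for rats without one, and the number of rats with a Cq under each group. *Chi3l3* circles appear in PKD rats only, 3 of them between 27.51 and 28.42 cycles and 1 at 34.97 cycles.

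Of the pro-inflammatory genes, 0 of 4 passed the threshold in PKD against SD rats with the reference genes, with log2 fold changes of 0.56 for *Il1b*, 0.11 for *Tnf*, −0.60 for *Nos2*, and 0.055 for *Il18*. The median was 0.081 against 0.44 for all tested genes, of which 36.6% passed. *Il1b* was higher than in SD rats in PKD + Clodronate (0.83) and in PKD + Controlliposomes rats (0.75), where *Nos2*, the inducible nitric oxide synthase, was lower (−1.24), beside 51.2% and 63.4% of all tested genes past the threshold. Without SD rat 3, *Il1b* passed in PKD + Clodronate against SD rats, and 0 of 4 passed in PKD + Controlliposomes. In that setting 20 and 22 of all 41 tested genes were higher, and 2 were lower in each comparison. Related to the mean of the specific genes, *Il18*, *Nos2*, and *Tnf* were lower than in SD rats in each of the 3 PKD groups, and *Il1b* did not pass. On that scale 16, 13, and 17 of all 41 tested genes were lower in PKD, PKD + Clodronate, and PKD + Controlliposomes rats.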

How the data were processed

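Retinal RNA of single rats was reverse transcribed, pre-amplified for 14 cycles, and run on TaqMan cards of 48 wells with a maximum of 40 cycles. Per the file headers, the values deposited by the authors are raw Cq (PCR cycles, another unit than counts), with no reference gene subtracted, beside signed fold changes of group means, which were not used. Wells were named by matching all 48 rows of Cq values to the supplement, and the groups of 23 columns were taken from its sample list. A further 11 columns, whose group is not given in the labels or that list, were not used. All 44 symbols are in the RefSeq table.

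Of 1104 wells, 57 had no Cq, in 4 genes, and Cq values ranged from 5.53 to 35.16 cycles. Each gene had a single well per rat, and copy numbers are not known from a Cq. Genes with at least 3 Cq values in each group (41) were fitted over 4 groups with lmFit and eBayes of limma 3.58.1 in R 4.3.3, following the one-way form of the study's methods, with Benjamini–Hochberg adjustment over genes and a threshold of 0.05. Single genes were compared by exact permutation of the rats between groups (two-sided, on the absolute mean difference) and by Fisher's exact test in Python 3.11.15 with scipy 1.17.1, and the procedures were tested on simulated data.

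The members, gene lists, and tests were chosen with earlier results of these data known. Named are both genes, the members of the 4 lists (1 tested gene is not reported here), the reference genes, the 5 genes most like *Chi3l1* over all rats and within groups, and its neighbors by fold change. Alternatives were other reference genes, the mean of the specific genes, no normalization, empty wells set to 40, dropped late Cq values, other gene filters and tests, only the compared groups, and leaving out each rat. Exact tests and likeness without SD rat 3 were added after the data had been seen.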

Additional observations from a re-analysis of the deposited data

Results flagged for a closer look

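In 9 groups of values searched (*Chi3l1*, *Chi3l3*, and the mean reference Cq), 2 held a rat far from the others, where chance gives about 1 in 20 groups (0.45 of 9). *Chi3l1* expression was 0.97 in 1 PKD + Controlliposomes rat, compared to 1.51 to 1.71 in the other 5. *Chi3l3* was −18.57 relative to the reference genes in 1 PKD rat, compared to −12.10 to −11.22 in the other 3 PKD rats with a Cq. The criterion was the gap to the nearest rat as a share of the range of the group. SD rat 3, at 1.30 for *Chi3l1* with the next SD rat at 0.11 in a range of 1.93, came close to this criterion but did not pass it.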

How the results depend on the processing

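*Chi3l1* was higher in PKD than in SD rats under all 14 alternatives (0.88 to 1.91) and with each rat left out (1.58 to 1.97), and passed the threshold each time. For PKD + Clodronate against SD rats, 13 of 14 alternatives passed (0.54 to 1.71, leaving out rats 1.30 to 1.68), and for PKD + Controlliposomes 13 of 14 (0.43 to 1.74, leaving out rats 1.35 to 1.74). The exceptions were 0.54 and 0.43 with the mean of the specific genes, a scale that lowers the median of all genes. Against PKD rats *Chi3l1* was between −0.36 and −0.17 with clodronate (leaving out rats −0.40 to −0.18) and between −0.45 and −0.14 with control liposomes (leaving out rats −0.33 to −0.12), with no call. Between the liposome groups its sign turned without *Mrpl19* (0.015), with the mean of the specific genes (0.11), and without PKD + Clodronate rat 1 (leaving out rats −0.18 to 0.036), and the cause was not tested. *Chi3l3* detection differed by 60.0 to 80.0 percentage points when rats were left out (PKD minus SD, and −80.0 to −60.0 for each liposome group minus PKD). Genes past the threshold in PKD against SD rats numbered 11 to 23, with 23 under the mean of the specific genes and 15 as reported, and without SD rat 3 there were 17, 22, and 24 in the 3 PKD groups against SD (15, 21, and 26 as reported). They numbered 0 to 5 in PKD + Controlliposomes against PKD rats, 0 to 2 in PKD + Clodronate against PKD, and 0 to 3 between the liposome groups. No paired analysis was possible because the columns carry animal numbers and not the replicate numbers of the labels. The precision is that of 1 well per gene and 5 or 6 rats per group.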
